A study of Mus musculus with 8 samples.

Results

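The CC chemokines described here are 10 mouse genes, Ccl2, Ccl3, Ccl4, Ccl5, Ccl6, Ccl7, Ccl8, Ccl9, Ccl11 and Ccl12, each found by its symbol among the 13839 genes of an RNA-seq table of aortic tissue. The study compared 5 control libraries with 3 libraries of a thoracic aortic dissection (TAD) group. Per the series' design text, mice drank β-aminopropionitrile monofumarate (BAPN), an inhibitor of collagen and elastin cross-linking, at 1 g/kg/d for 4 weeks from the age of 3 weeks. Angiotensin II, a peptide that raises blood pressure, followed at 7 weeks from an osmotic pump under the skin (1 μg/kg per min), and the mice were killed after 24 h. That text does not say what the controls received, and strain, sex and the stretch of aorta are not stated. The series title concerns the RNA-binding protein MEX3B and the proteoglycan VCAN in smooth muscle cells; the labels of these libraries name no genotype. Whether each library came from 1 mouse is not given, so p-values reflect only how these libraries vary, and that variation may be technical.

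CC chemokines are small secreted proteins named for a pair of adjacent cysteines near the amino end. They bind to heparan sulfate on cells and matrix and to G protein-coupled receptors on leukocytes, which then move up the gradient. Ligands of Ccr2 draw monocytes out of the bone marrow and into tissue, ligands of Ccr1 act on monocytes, macrophages and lymphocytes, and ligands of Ccr3 act mainly on eosinophils. In the vessel wall smooth muscle cells, fibroblasts, endothelial cells and macrophages can all make them, and many of their genes are switched on within hours by interleukin 1 and tumour necrosis factor through NF-kappaB.

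All 10 genes lie on chromosome 11 in a pair of blocks (GENCODE M21, build GRCm38). The first spans 81.2 kb, from base 82035571 to base 82116799, and holds, in order, Ccl2, Ccl7, Ccl11, Ccl12 and Ccl8, all on the plus strand. The second lies 1409 kb further on, spans 139 kb from base 83525778 to base 83664683, and holds Ccl5, Ccl9, Ccl6, Ccl3 and Ccl4. Exons of the 10 genes overlapped no exon of another gene, and none of their 50-base words occurred in another gene's transcripts, except 1.97% of those of Ccl9. The gene positions come from the annotation and not from the authors' files.

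Promoter sequences were at hand for Ccl3, Ccl6, Ccl8, Ccl9 and Ccl12 (RefSeq, GRCm38.p6), and not used here for Ccl2, Ccl4, Ccl5, Ccl7 and Ccl11. The 250 bases before the start site are shown for 4 of them, because Ccl12 and Ccl8 are neighbours whose levels went apart in 1 TAD library, whereas Ccl9 and Ccl6 are neighbours whose ratio did not differ beyond the spread between libraries. They are Ccl12 (chr11:82101595-82101844, plus strand), Ccl8 (chr11:82114935-82115184, plus strand), Ccl9 (chr11:83578637-83578886, minus strand) and Ccl6 (chr11:83593088-83593337, minus strand), each written 5′ to 3′. Capitals mark the letters TATAAA on the gene's strand and, in Ccl9, also an AP-1 match and a kappaB match, the latter on the opposite strand.
Ccl12: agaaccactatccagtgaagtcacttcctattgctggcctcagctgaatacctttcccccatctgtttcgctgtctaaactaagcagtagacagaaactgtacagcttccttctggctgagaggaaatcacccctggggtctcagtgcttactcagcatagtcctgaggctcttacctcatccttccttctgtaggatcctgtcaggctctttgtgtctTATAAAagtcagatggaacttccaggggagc
Ccl8: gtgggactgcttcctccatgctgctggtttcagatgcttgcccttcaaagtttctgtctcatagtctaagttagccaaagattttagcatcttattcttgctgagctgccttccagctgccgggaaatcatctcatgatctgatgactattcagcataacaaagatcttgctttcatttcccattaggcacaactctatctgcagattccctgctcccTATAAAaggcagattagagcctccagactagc
Ccl9: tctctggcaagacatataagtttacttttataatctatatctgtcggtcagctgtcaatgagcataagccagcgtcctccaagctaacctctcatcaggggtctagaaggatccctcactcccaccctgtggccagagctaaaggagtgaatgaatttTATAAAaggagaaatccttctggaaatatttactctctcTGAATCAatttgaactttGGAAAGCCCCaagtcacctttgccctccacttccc
Ccl6: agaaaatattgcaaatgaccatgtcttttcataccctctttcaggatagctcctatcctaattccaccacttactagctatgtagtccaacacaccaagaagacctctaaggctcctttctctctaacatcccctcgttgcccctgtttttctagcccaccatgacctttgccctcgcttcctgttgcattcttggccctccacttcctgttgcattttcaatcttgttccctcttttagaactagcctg
TATAAA begins 31 bases before the start in Ccl12, 32 bases before it in Ccl8 and 92 bases before it in Ccl9, and 7.59% of 32851 promoters of this length hold it. The AP-1 letters TGANTCA, searched on both strands, were found in Ccl9 alone of the 5 promoters, and in 6.75% of all promoters. A match to the kappaB consensus, also searched on both strands, was found in Ccl9 alone of the 5, and in 3.90% of all promoters. The letters TTGCNNAA (C/EBP), TTCNNNGAA (STAT) and the interferon-stimulated response element, searched on both strands, matched none of the 5 windows. These matches describe letters in short windows only. The Ccl12 and Ccl8 windows had 55.6% identical columns in a global alignment, the highest of the 10 pairs, with no shared run longer than 8 bases. The Ccl9 and Ccl6 windows had 46.8%, with a shared run of 13 bases, gccctccacttcc.

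Messenger RNAs of several chemokines are short-lived, and AU-rich stretches of the 3′ untranslated region are known to recruit decay factors such as tristetraprolin, the product of Zfp36. The overlapping core TATTTAT occurred in the 3′ region of Ccl3, Ccl4 and Ccl12 and in none of the other 7 members. It was present in 30.5% of 13613 genes, and in 9.0% of the 3924 genes whose 3′ region has at most 600 bases. The sites are shown with 11 bases on each side, the core in capitals.
Ccl3: gtatttgtgacTATTTATtctgaaagact
Ccl4: attatttctatTATTTATgttttagttat
Ccl12: gggcagtgtgaTATTTATtatgatatcta
Ccl12 has 5 copies of the shorter word ATTTA in 167 bases, or 29.9 per kb, a density that only 6 of the 13613 genes reached, Ccl12 included. Ccl3 has 12.2 per kb, Ccl11 7.76, Ccl4 6.62, Ccl7 4.6, Ccl6 4.24, Ccl2 3.64 and Ccl9 2.03, against a median over genes of 1.31 per kb. Ccl5 and Ccl8 have no copy. The 3 genes with the core were also the 3 members with the lowest control levels per length, given below. Ccl11, with more ATTTA per kb than Ccl4, had a higher mean control level than all members but Ccl6. In TAD the mean level of Ccl5, which has no copy, was below those of Ccl4 and Ccl12. A link between these words and the levels was not tested.

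Library totals ran from 12042971 to 15039132 counts. Smooth muscle markers were present in every library, at a sum of 917 to 12790 CPM (counts scaled to 1000000 of the library's effective total), and fat markers stood at 17746 to 21517 CPM in controls and 7836 to 12434 CPM in TAD. Heart muscle markers went from 39.2 to 19772 CPM across libraries of both groups, highest in control 1 and TAD 1, and nerve markers were at 1983 CPM in TAD 2 and at most 197 CPM elsewhere. Of 13701 genes that passed the filter on low counts, edgeR's quasi-likelihood test called 2083 (15.2%) higher and 1622 (11.8%) lower in TAD at a Benjamini-Hochberg adjusted p below 0.05, and the median log2 fold change was 0.04. On log2(TPM + 1), where TPM is the deposited FPKM rescaled to the same sum in each library, 36.6% of calls were higher instead of 56.2%, and the median moved to -0.13.

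Of the 10 CC chemokines, all of which passed the filter, 8 rose in TAD and 2, Ccl5 and Ccl11, did not pass the test. None was called lower by edgeR, at an unadjusted p below 0.05 either, since all 10 estimates were positive, and none by DESeq2 or limma. The background is 15.2% of tested genes called higher. In 7 of the 10 every TAD library lay above every control library, against 16.9% of tested genes. The members' median log2 fold change was 4.14. Called genes with at least a 16-fold increase made up 0.817% of those tested, and Ccl2, Ccl3, Ccl4, Ccl7 and Ccl12 were among them. Those with at least a 4-fold increase made up 4.08%, and all 8 called members were among them. The count of 8 went down to 6 or 7 under 11 of the 21 alternatives, each without Ccl8 and 1 also without Ccl3, and up to 9 where TAD 2 was left out. In tissue RNA, more cells of a type and more RNA per cell cannot be told apart.

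**Figure D1:**
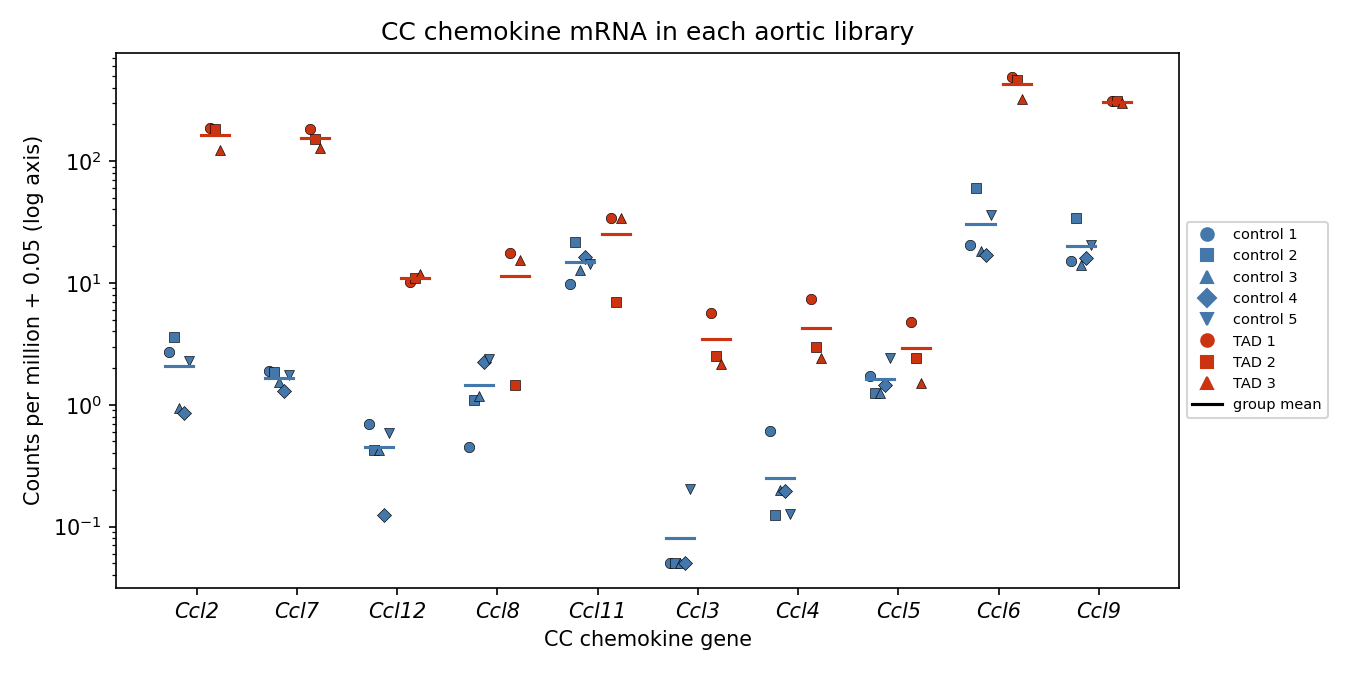
Level of each CC chemokine mRNA in the 5 control (blue) and 3 TAD (red) libraries, in CPM plus 0.05 on a log axis, with 1 symbol per library and a bar at the group mean. TAD libraries lie above all controls for 7 genes, whereas for Ccl8 and Ccl11 the TAD 2 library lies among or below the controls and for Ccl5 the groups overlap.

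Ccl2, the main ligand of Ccr2 on monocytes, had 2.63, 3.52, 0.895, 0.807 and 2.23 CPM in controls 1 to 5 and 188, 181 and 123 CPM in TAD 1 to 3. The lowest TAD library was far above the highest control, and the controls themselves spread 4.37-fold. The log2 fold change was 6.34 ± 0.47 (SE; edgeR adjusted p = 0.00020), and the exact two-sided permutation test of the mean log2 CPM gave p = 0.0179, the smallest that 5 libraries against 3 can give.

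Ccl7, which binds Ccr2 and other receptors of monocytes and granulocytes, stood at 1.84, 1.80, 1.49, 1.25 and 1.69 CPM in controls and at 183, 151 and 129 CPM in TAD. Its libraries were close together within each group, the highest being 1.47-fold the lowest in controls and 1.43-fold in TAD. At 6.57 ± 0.18 its log2 fold change was the highest of the 10 in this fit, though Ccl3 was higher by DESeq2 (6.75 against 6.57) and Ccl2 or Ccl3 was higher without control 2, control 5 or TAD 2. Its edgeR p was the lowest of the 10 (edgeR adjusted p = 1.78e-06), while its exact permutation p of 0.0179 equalled that of Ccl2. Ccl7 lay above 99.9% of tested genes in log2 fold change.

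Ccl12, a mouse ligand of Ccr2, was scarce in controls, with 8, 5, 5, 1 and 7 counts (0.639, 0.375, 0.373, 0.0734 and 0.538 CPM), and reached 10.1, 11.0 and 11.7 CPM in TAD. The TAD libraries differed by 1.16-fold only and none overlapped the controls. Its log2 fold change was 4.75 ± 0.49 (edgeR adjusted p = 0.00054; exact permutation p = 0.0179).

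Ccl8, in mouse a ligand of Ccr8, had 0.399, 1.05, 1.12, 2.20 and 2.30 CPM in controls and 17.6, 1.39 and 15.3 CPM in TAD. TAD 1 and TAD 3 were above all controls, but TAD 2 was inside the control range, so the groups overlapped. The fitted log2 fold change was 3.00 ± 0.77 (edgeR adjusted p = 0.022), while the exact permutation p was 0.0536. This call was lost under 11 of 21 alternatives, among them leaving out TAD 1 (2.56, adjusted p = 0.082), TAD 3 (2.73, adjusted p = 0.0531), control 2 (2.90, adjusted p = 0.0508) or control 3 (2.93, adjusted p = 0.0515).

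Ccl11, or eotaxin, a ligand of Ccr3 on eosinophils, had 9.74, 21.6, 12.6, 16.2 and 14.4 CPM in controls and 33.9, 6.96 and 34.2 CPM in TAD. TAD 2 was below every control and the other TAD libraries were above every control. The log2 fold change of 0.75 ± 0.47 did not pass (edgeR adjusted p = 0.27; exact permutation p = 0.446), and its 95% interval of -0.33 to 1.82 leaves room for an increase of more than 2-fold. Without TAD 2 it was 1.19 and passed (edgeR adjusted p = 0.0157).

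Ccl8 and Ccl11 were thus both low in TAD 2, where other markers were low as well. The 10 adventitial fibroblast markers, of which none was called, summed to 5705, 1086 and 8525 CPM in TAD 1 to 3 and to 2116 to 5229 CPM in controls. The resident macrophage markers summed to 1089, 497 and 1094 CPM in TAD and to 381 to 595 CPM in controls. Of these, 2 of 9 tested rose, against 15.2% of all tested genes. Smooth muscle markers were lowest in TAD 2, at 917 CPM, with 2277 and 5155 CPM in TAD 1 and TAD 3 and 2670 to 12790 CPM in controls. The part of these markers in the values of Ccl8 and Ccl11 was not tested. For no member with separate groups was TAD 2 lower than each other TAD library.

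Ccl3 and Ccl4, neighbours at the end of the second block, code for chemokines made by macrophages, neutrophils and lymphocytes; Ccl3 binds Ccr1. No count of Ccl3 was found in controls 1 to 4, which allows levels of up to 0.220 to 0.239 CPM in each, and control 5 had 2 counts (0.154 CPM). TAD 1 to 3 had 68, 37 and 32 counts, or 5.59, 2.45 and 2.10 CPM. Over the groups the counts were 2 and 137, a depth-adjusted ratio of 109 with an exact 95% interval of 29.7 to 913 for counting error. The test called Ccl3 higher (edgeR adjusted p = 0.0021; exact permutation p = 0.0179), and the fitted log2 fold change of 6.42 ± 0.94 became 8.53 without control 5, as the prior count then stands in for the controls.

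Ccl4 had 7, 1, 2, 2 and 1 counts in controls (0.559, 0.0750, 0.149, 0.147 and 0.0768 CPM) and 89, 44 and 36 counts in TAD (7.31, 2.92 and 2.37 CPM). TAD 1 was highest and control 1 stood above the other controls, with no overlap of the groups. Its log2 fold change was 4.33 ± 0.71 (edgeR adjusted p = 0.0033; exact permutation p = 0.0179), and became 5.11 without control 1 and 3.66 without TAD 1, both called. The neutrophil markers followed the order of Ccl3 and Ccl4 over the TAD libraries, with 1447, 1190 and 485 CPM in TAD 1 to 3. In controls 1 to 4 they had 16.04 to 25.7 CPM and in control 5 they had 169 CPM, whereas Ccl4 was highest in control 1. T and NK cell markers had the same TAD order, with 27.6, 16.2 and 11.1 CPM. Monocyte and macrophage markers did not, with 2310, 1620 and 2076 CPM. The part of these lists in the values of Ccl3 and Ccl4 was not tested.

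Ccl5, a ligand of Ccr1 and Ccr3 that T cells, platelets and macrophages make, had 1.68, 1.20, 1.19, 1.39 and 2.38 CPM in controls and 4.77, 2.39 and 1.45 CPM in TAD. TAD 3 was within the control range and TAD 2 level with the highest control. The log2 fold change of 0.86 ± 0.46 did not pass (edgeR adjusted p = 0.20; exact permutation p = 0.107), with a 95% interval of -0.20 to 1.92, and without TAD 1 it was 0.27. T and NK cell markers were likewise highest in TAD 1. They summed to 27.6, 16.2 and 11.1 CPM in TAD and 8.80 to 14.4 CPM in controls. Of these markers 1 of 10 tested rose, against 15.2% of all tested genes. Platelet markers were highest in TAD 2 instead, with 617, 1217 and 355 CPM in TAD 1 to 3. Monocyte and macrophage markers were highest in TAD 1 and lowest in TAD 2, with 2310, 1620 and 2076 CPM. The part of these lists in the values of Ccl5 was not tested.

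Ccl6 and Ccl9 are rodent chemokines that act through Ccr1 and are made by macrophages and other myeloid cells. Ccl6 had 20.4, 59.7, 18.1, 16.9 and 36.0 CPM in controls and 486, 465 and 325 CPM in TAD. Control 2 was the highest control, yet the lowest TAD library was several times above it, and the log2 fold change was 3.81 ± 0.44 (edgeR adjusted p = 0.00081; exact permutation p = 0.0179).

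Ccl9 had 15.1, 34.0, 13.9, 16.1 and 20.6 CPM in controls and 311, 313 and 298 CPM in TAD. Control 2 was again the highest control, and the TAD libraries differed by 1.05-fold, the least of the 10 members. The log2 fold change was 3.95 ± 0.29 (edgeR adjusted p = 0.00020; exact permutation p = 0.0179).

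**Figure D2:**
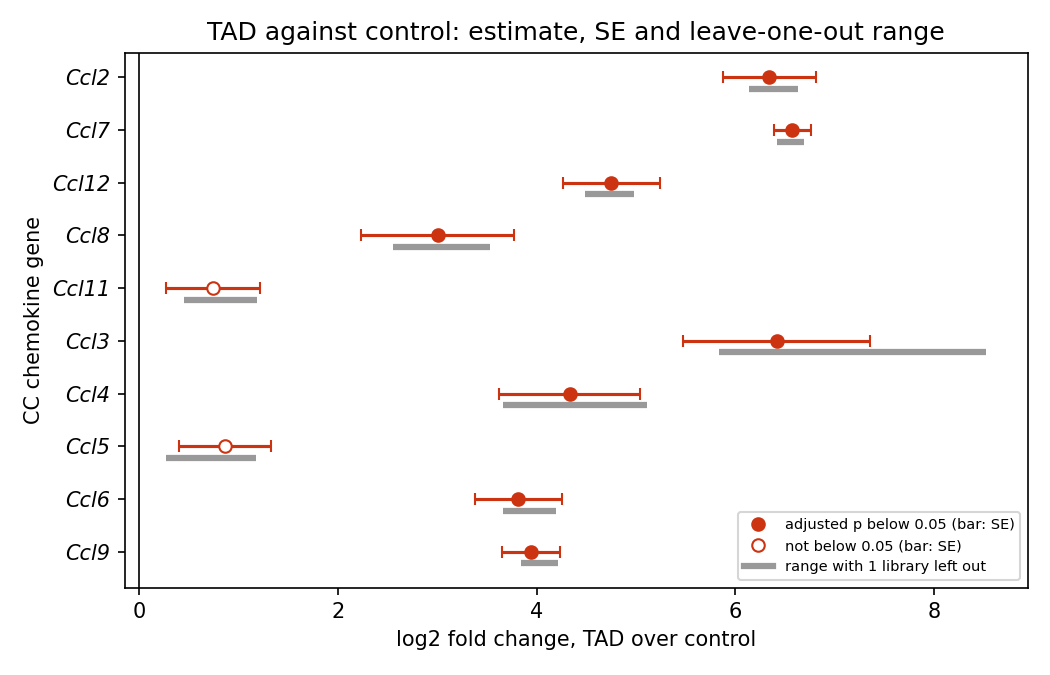
Log2 fold change of TAD over control for each CC chemokine (points, with the SE as bars; filled where the edgeR adjusted p is below 0.05) and the range of that estimate over 8 fits that each leave out 1 library (grey). Ccl7 has the narrowest error at 6.57 ± 0.18, and Ccl5 and Ccl11 are the 2 open points, at 0.86 and 0.75.

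Position in the blocks did not order the sizes of change. In the first block the log2 fold changes ran 6.34, 6.57, 0.75, 4.75 and 3.00 from Ccl2 through Ccl7, Ccl11 and Ccl12 to Ccl8, so that Ccl11, which did not pass the test, lies between Ccl7 and Ccl12, which did. In the second block they ran 0.86, 3.95, 3.81, 6.42 and 4.33 from Ccl5 through Ccl9, Ccl6 and Ccl3 to Ccl4. Each block had 4 of its 5 members called higher.

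Ratios within a library depend on library scaling only through the prior count, which weighs on genes with few counts. For 7 pairs they were compared on log2 CPM with a prior count of 2, by exact two-sided permutation tests adjusted over the 7. The log2 ratio of Ccl2 to Ccl7 was 0.11 ± 0.68 (SD, n = 5) in controls and 0.08 ± 0.17 (SD, n = 3) in TAD, a difference of -0.04 (exact permutation p = 0.929, adjusted 0.929). The ratio of Ccl6 to Ccl9 was 0.50 ± 0.31 in controls and 0.45 ± 0.28 in TAD, a difference of -0.05 (exact permutation p = 0.821, adjusted 0.929). Neither difference is beyond the spread between libraries, and the sign of both turned when single libraries were left out.

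Ccl2 went up more than Ccl12, Ccl11 and Ccl5. Relative to Ccl12 the log2 ratio went from 1.91 ± 0.65 to 3.86 ± 0.43, a difference of 1.956. Relative to Ccl11 it went from -2.94 ± 0.91 to 2.99 ± 1.49, a difference of 5.94, and relative to Ccl5 from 0.18 ± 0.85 to 5.90 ± 0.56, a difference of 5.71. All 3 had an exact permutation p of 0.0179 (0.0417 adjusted over the 7 pairs), with every TAD library above every control. The difference to Ccl12 had p = 0.0571 by the exact permutation test when control 1, 4 or 5 was left out, and was 1.64 with a prior count of 0.5 (p = 0.0357, exact).

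Relative to Ccl8 the difference was 3.96 (exact permutation p = 0.0357, adjusted 0.0625), with the ratio highest in TAD 2 at 6.88, against 3.40 in TAD 1 and 2.99 in TAD 3. Ccl3 to Ccl4 gave a difference of 0.63 (exact permutation p = 0.339, adjusted 0.475), with control ratios set by 0 to 7 counts. With a prior count of 0.5 that difference was 1.64 (exact permutation p = 0.125).

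**Figure D3:**
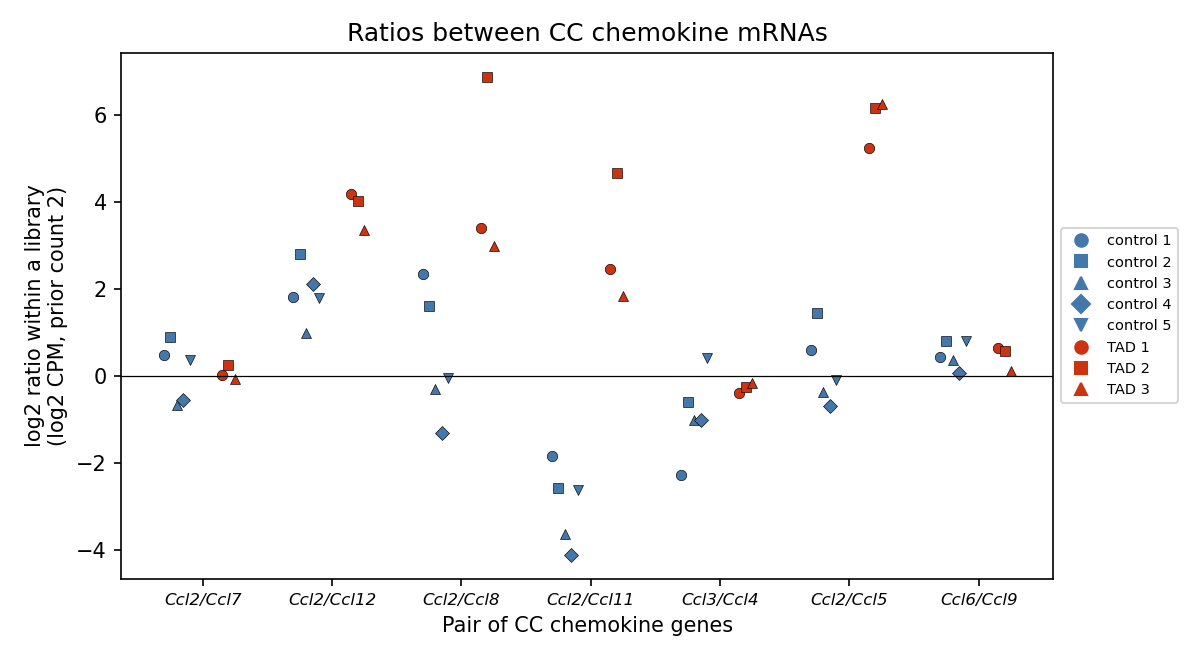
Log2 ratio of 7 pairs of CC chemokine mRNAs within each control (blue) and TAD (red) library, 1 symbol per library, on log2 CPM with a prior count of 2. The Ccl2/Ccl7 and Ccl6/Ccl9 ratios overlap between groups, whereas those of Ccl2 to Ccl12, Ccl11 and Ccl5 are higher in all 3 TAD libraries than in any control.

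Levels of different genes can be set side by side only per length, and here the length matters. The length implied by each deposited FPKM matched, within 2%, the sum of all annotated transcripts of the gene for 96.3% of 13821 genes, so a gene with several annotated transcripts has a low FPKM for its reads. Ccl2 has 2 transcripts that sum to 1909 bases, of which the coding one has 813, and Ccl6 has 3 that sum to 2658 bases, of which the longest coding one has 1440. Ccl5, Ccl9 and Ccl12 have 2 transcripts each, and the other 5 members have 1. Fold changes of a gene are untouched by its length. Shares are therefore given both on the deposited FPKM and on counts per length of the longest coding transcript, the latter chosen after seeing the data.

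The summed FPKM of the 10 genes was 26.8, 60.7, 27.6, 35.1 and 41.3 in controls and 704, 579 and 520 in TAD. On the deposited FPKM Ccl11 had the highest mean share in controls, with 30.5 to 44.3% of the sum. Ccl6 led in control 2, with 37.4% against 33.2% for Ccl11, and in control 5, with 31.2% against 30.5%. The TAD libraries were led by Ccl7, with 31.2 to 32.7%. Per length of the longest coding transcript, Ccl6 had the highest mean share instead, with 33.7 ± 2.9% (SD, n = 3) of the sum in TAD and 37.6 ± 8.0% (SD, n = 5) in controls. On that scale Ccl11 led in control 4, with 35.8% against 28.0% for Ccl6. Ccl2 made up 22.9 ± 2.3% in TAD and 4.63 ± 2.27% in controls, Ccl7 22.02 ± 0.58% and 4.13 ± 1.25%, and Ccl11 2.72 ± 1.84% and 27.1 ± 6.1%. Ccl9 had 11.9 ± 1.7% in TAD and 12.5 ± 0.74% in controls. On both scales the shares of Ccl2 and Ccl7 were higher, and those of Ccl5 and Ccl11 lower, in every TAD library than in every control, which is a description with no test. Shares of a sum depend on each other, and the levels of Ccl5 and Ccl11 themselves were not called lower (log2 fold changes 0.86 and 0.75).

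**Figure D4:**
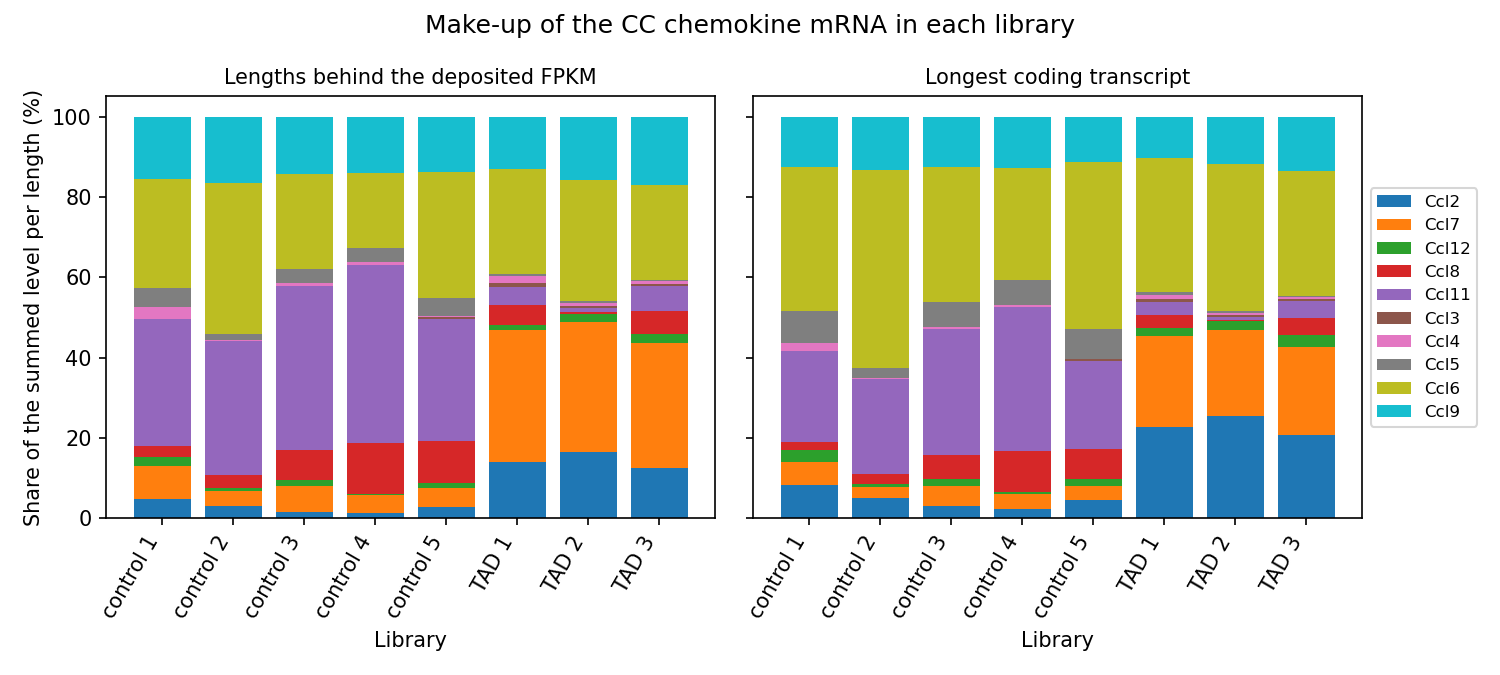
Share of each CC chemokine in the summed level per length, in percent, for each library, on the lengths behind the deposited FPKM (left) and on the longest coding transcript (right). Ccl2 and Ccl7 take up a small part of each control bar and a large part of each TAD bar. The share of Ccl11 goes the other way, from 27.1% to 2.72% on the right, while its own level was not called lower.

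Per kb of that transcript, the order in TAD was Ccl6 at 295 CPM per kb, Ccl2 at 202, Ccl7 at 193, Ccl9 at 102, Ccl11 at 23.1, Ccl8 at 22.4, Ccl12 at 20.4, Ccl4 at 6.36, Ccl5 at 5.39 and Ccl3 at 4.41. Ranges of neighbours in this order overlapped except between Ccl7 and Ccl9, between Ccl9 and Ccl11 and between Ccl12 and Ccl4. In controls the order was Ccl6 at 20.99 CPM per kb, Ccl11 at 13.8, Ccl9 at 6.63, Ccl5 at 2.95, Ccl8 at 2.77, Ccl2 at 2.48, Ccl7 at 2.01, Ccl12 at 0.744, Ccl4 at 0.305 and Ccl3 at 0.0401. There only Ccl9 and Ccl5, and Ccl7 and Ccl12, had separate ranges.

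Of 15 other CC chemokines listed, 7 were in the table and 6 were tested, with 2 called higher and 1 lower. Over all tested genes these shares were 15.2% and 11.8%. Ccl22, a ligand of Ccr4 made by macrophages and dendritic cells, had 8.30, 0.133 and 3.61 CPM in TAD and 0.0798 to 0.974 CPM in controls, so that TAD 2 was again low (log2 fold change 3.49 ± 1.07, edgeR adjusted p = 0.042). Ccl19, a ligand of Ccr7, had 3.21, 0.994 and 2.23 CPM in TAD and at most 1.04 CPM in controls (2.02 ± 0.64, edgeR adjusted p = 0.046). Ccl27a, a ligand of Ccr10, fell from 9.97 to 4.37 CPM (-1.19 ± 0.26, edgeR adjusted p = 0.011), with every TAD library below every control, as in 15.0% of tested genes. Of the 50-base words of Ccl19 and Ccl27a, 52.0% and 45.0% occur in near-identical copies, so their counts are uncertain. The call of Ccl19 was lost in 6 of the 8 fits without 1 library and that of Ccl22 in 6 of 7, since without control 2 Ccl22 did not pass the filter on low counts, and leaving out TAD 1 gave 1.62 and 2.41.

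Of 4 CC receptors described here, which sit on the responding cells, 3 rose and 1 fell, against 27.0% of tested genes called either way. Ccr1, the receptor of Ccl3, Ccl5, Ccl6 and Ccl9, went from 3.86 ± 1.97 CPM (SD, n = 5) to 117 ± 42 CPM (SD, n = 3; log2 fold change 4.92 ± 0.46). Ccr2, the receptor of Ccl2, Ccl7 and Ccl12, had 15.5, 28.7, 8.35, 6.24 and 17.7 CPM in controls and 164, 172 and 90.6 CPM in TAD (3.21 ± 0.47). Ccr7, the lymph node homing receptor, went from 0.937 to 5.86 CPM (2.63 ± 0.55, and 1.95 with TAD 1 left out). In these 3 no TAD library overlapped a control. Ccr10 fell, from 6.32 to 1.54 CPM (-2.03 ± 0.65, edgeR adjusted p = 0.049), a call lost in 7 of the 8 fits without 1 library, while without TAD 3 it was -3.18.

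Atypical receptors bind chemokines without calling cells, and 1 of 5 was called, against 27.0% of all tested genes called either way. Ackr1, which carries chemokines across venules and on red cells, had 8.46, 26.8 and 4.01 CPM in TAD and 2.05 to 5.85 CPM in controls (2.01 ± 0.60, edgeR adjusted p = 0.038), a call lost in 6 of the 8 fits without 1 library, and without TAD 2 it was 0.93. Exons of Ackr1 share 25.7% of their bases with Cadm3 on the same strand, so its counts are uncertain.

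Of 12 tested genes of cytokines that induce CC chemokines and of NF-kappaB, 7 rose, against 15.2% of all tested genes. The list median was 1.32 on the log2 scale. Il6, which codes for interleukin 6, had 96.8, 8.55 and 174 CPM in TAD and at most 0.239 CPM in controls (log2 fold change 9.86 ± 1.15, edgeR adjusted p = 0.00083). Il1b, for interleukin 1 beta, went from 2.83 to 85.7 CPM (4.92 ± 0.85), and Tnf, for tumour necrosis factor, from 0.371 to 1.75 CPM (2.22 ± 0.64, edgeR adjusted p = 0.034). Il6 was 9.03 without TAD 3, 10.48 without control 1 and 10.45 without control 4, and Il1b 6.23 without control 5, all called, whereas Tnf lost its call in 6 of the 8 fits without 1 library.

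Among 9 decay factors of chemokine mRNA, 2 rose, against 15.2% of all tested genes called higher. Zc3h12a, which codes for the endonuclease Regnase, went from 13.2 to 27.7 CPM (log2 fold change 1.07 ± 0.24, edgeR adjusted p = 0.012), and Hnrnpd, for the AU-binding protein AUF, from 50.8 to 94.9 CPM (0.90 ± 0.15, edgeR adjusted p = 0.003). Zfp36 had 78.5 CPM in controls and 158 CPM in TAD, with all TAD libraries above all controls, but did not pass (1.01 ± 0.37, edgeR adjusted p = 0.073), although it did by DESeq2 (adjusted p = 0.0328); it was picked after its values were seen.

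Of 9 proteases that trim CC chemokines, 4 rose: Mmp8 (4.91 ± 1.16), Mmp9 (3.09 ± 0.58), Mmp3 (2.21 ± 0.52) and Mmp14 (1.20 ± 0.26), with edgeR adjusted p from 0.006 to 0.016. The share of all tested genes called higher was 15.2%. Mmp8 and Mmp9 are also on the neutrophil marker list. Mmp3, the stromelysin gene, had 133, 25.9 and 169 CPM in TAD and 15.6 to 34.7 CPM in controls, so that its TAD 2 library was inside the control range. Mmp8 was not called without TAD 1 (4.31), nor was Mmp3 (2.05), and without control 5 Mmp8 had 6.66 and Mmp9 3.79. Of 6 genes for heparan sulfate carriers, 2 rose, Sdc4 (1.92 ± 0.34, edgeR adjusted p = 0.005) and Sdc3 (0.63 ± 0.18, edgeR adjusted p = 0.030), the latter lost in 6 of the 8 fits without 1 library.

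Several leukocyte marker lists moved in the same direction as the chemokines and others did not, and their part in these results was not tested. Over all tested genes 15.2% were called higher and 11.8% lower. Of 20 monocyte and macrophage markers 11 rose, and the list summed to 571 to 960 CPM in controls and 1620 to 2310 CPM in TAD, with a median log2 fold change of 1.29. The summed chemokines went from 49.8 to 123 CPM up to 941 to 1247 CPM. Of 11 tested neutrophil markers 8 rose, with a median of 4.73, and of 9 tested platelet markers 8 rose, summing to 34.2 to 76.4 CPM in controls and 355 to 1217 CPM in TAD. Both eosinophil markers in the table rose, from at most 1.64 to at least 4.37 CPM in sum. Of 6 mast cell markers 1 rose and none fell, with a list median of -0.90, and of 8 dendritic cell markers 2 rose and 1 fell, with a list median of -0.26. The mast cell list summed to 37.8 to 70.1 CPM in controls and 66.2 to 103 CPM in TAD. In that list Hdc, the marker that rose, went from 6.46 to 58.6 CPM. The 5 mast cell markers not called had log2 fold changes of -1.38 to -0.76. The dendritic cell list summed to 240 to 298 CPM in controls and 109 to 281 CPM in TAD. None of these lists had a listed gene at 0 in all libraries; Epx, Prg2 and Ccr3 of eosinophils, Trac of T cells, Fcer1a and Ms4a2 of mast cells and Xcr1 of dendritic cells are not in the table. Among structural cells, 4 of 10 endothelial and 7 of 10 adipocyte markers fell.

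Genes whose pattern was most like each member were taken as the 2 with the smallest root mean square difference of centred log2 CPM over the 8 libraries, as a description. Ccl2 lay nearest to Adam8 (0.40) and Slc7a11 (0.41), a cystine transporter gene, and Ccl7 to Hmox1 (0.36), which codes for heme oxygenase, and Serpina3n (0.53). Ccl6 and Ccl9 had the same nearest gene, Gpr35, at 0.25 and 0.28, followed by Sirpb1a (0.37) for Ccl6 and the macrophage scavenger receptor gene Msr1 (0.33) for Ccl9. Ccl12 was nearest to Arl11 (0.42) and Clec4n (0.46).

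Ccl8 was nearest to Mmp3 (0.57) and Kcne4 (0.61), the widest distances of the 10, and these share its low TAD 2 library. Kcne4 was called over all libraries (edgeR adjusted p = 0.044) but not in 7 of the 8 fits without 1 library, and its log2 fold change was 1.28 without TAD 1. Ccl11 was nearest to the complement genes C1qa (0.25) and C1qb (0.25), neither of which passed the test over all libraries, with edgeR adjusted p of 0.24 and 0.14, while both passed without TAD 2, as did Ccl11. Ccl5 was nearest to the interferon-induced gene Ifi44 (0.21) and Ripor2 (0.23), Ccl3 to Lilrb4a (0.22) and the metallothionein gene Mt1 (0.30), and Ccl4 to Lrp8 (0.30) and Fgf23 (0.44). Since the prior count flattens low levels, the nearest genes of Ccl3 and Ccl4 rest on few control counts. Exons of Lilrb4a share 35.3% of their bases with other genes, and its counts are uncertain.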

How the data were processed

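Per the labels' protocols, TRIpure served for RNA extraction and an NEBNext Ultra kit for libraries, from 200 ng; strandedness is not stated. HISAT2, HTSeq, fastp 0.23.1 and bcl2fastq 2.19 are named in the submitters' processing notes, with the human builds GRCh38 and hg38, although gene identifiers are those of mouse, whose build remains not given in the sources used here. Per the file headers, the authors deposited 1 table with a read count and an FPKM value per gene and library. No molecular identifiers are mentioned, and intervals and floors (3 counts) cover counting error only.

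Counts were tested with edgeR 4.0.16 (filterByExpr, TMM, quasi-likelihood, Benjamini-Hochberg over 13701 genes) across all 8 libraries, with no covariate. CPM uses TMM effective totals. Checks used limma 3.58.1, DESeq2 1.42.0 and exact permutations over the 56 splits of libraries. On simulated data for TAD against control with 13595 genes tested, edgeR found 78% of genes set to an 8-fold change and 62%, 10% and 0% of those set to 4-, 2- and 1.5-fold, and called 4 of 13396 unchanged genes. Only 50 genes were set to each fold, far fewer in all than the 3705 called in the real data. The adjustment was therefore stricter in the simulation, and its shares may be too low for these data. Replicate numbers were taken from the titles. Marker genes, which the rule also names, are given through their lists' sums, and Hdc also singly. Text genes outside the members were the called CC chemokines and receptors, the 3 largest calls of each other list (the 2 highest in FPKM where fewer than 2 were called) and 2 nearest genes per member; Mmp14 and Zfp36 were named after their values were seen, and 1 listed gene is not reported here. Members and lists were chosen with earlier results of these data known. Alternatives were other scalings, filters, pseudocounts, tools, a test against a 2-fold change, replicate blocks and left-out libraries.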

Additional observations from a re-analysis of the deposited data

Results flagged for a closer look

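Within the 5 controls, 55 sets of values (the named genes and the 7 ratios) were searched for a library far from the rest, and chance alone flags about 1 in 20. Of these, 4 were found, 2 of them CC chemokines. Ccl3 in control 5 had 0.154 CPM, from 2 counts, with no count in the other 4 controls. Ccl4 in control 1 had 0.559 CPM, from 7 counts, against 1 or 2 counts in the others. Mmp9 had 32.1 CPM in control 5, where the neutrophil marker list was also highest among controls, at 169 CPM. Fgf23 had 0.160 CPM in control 1, with none in the other controls. With no count in 4 controls, as for Ccl3 and Fgf23, any count in the last is flagged. The rate of 1 in 20 does not hold there.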

How the results depend on the processing

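Over 21 alternatives the call or lack of call held for Ccl2, Ccl4, Ccl5, Ccl6, Ccl7, Ccl9 and Ccl12. Members called higher numbered 6 to 9. Genes called went from 3705 to 632 with the test against a 2-fold change, 1255 with the replicate block and 1963 without control 1 and TAD 1, and stood at 2549 to 3728 with 1 library left out. Ccl8 was not called with the 2-fold test (adjusted p = 0.129), limma (0.0525 to 0.0827) or without control 1 and TAD 1 (0.117), nor was it with the block (3.25, 0.125). The block also lost Ccl3 (8.48, adjusted p = 0.0545). Same-numbered libraries correlated across genes at 0.427, 0.0972 and 0.544, and differently numbered ones at -0.652 to 0.362. Whether the numbers pair the libraries is not stated, and these few values cannot decide it. For the ratios a paired test over 3 pairs cannot go below 0.25. The Ccl2/Ccl7 difference reversed to 0.05, 0.16 and 0.03 without control 1, 2 or 5, 0.03 without TAD 3 and 0.075 without control 1 and TAD 1, and ran from -0.23 to 0.16 with 1 library left out. That of Ccl6/Ccl9 reversed to 0.03, 0.03 and 0.11 without control 2, control 5 or TAD 3, in a range of -0.16 to 0.11. The cause was not tested. Shares in TAD moved by more than their SD over the 3 libraries with raw counts in place of FPKM for 6 members (Ccl6 38.1%, Ccl9 28.0%, Ccl7 13.9%), and with transcript length for 6. Depth limits Ccl3, Ccl4 and Ccl12, with 2, 13 and 26 control counts in all.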
